A study of Homo sapiens with 6 samples.

Results

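Proteasome genes were followed in the human myeloma line MOLP-8 after lentiviral CRISPR targeting of LIN28B. The genes were chosen by symbol alone: every gene named PSMA, PSMB, PSMC, PSMD, PSME, PSMF or PSMG followed by a number, together with POMP, which gave 49 of 57861 usable genes. The rule uses no measured value. Control cells carried the lentiCRISPRv2 vector with a scrambled guide, and LIN28B KO cells carried the same vector with a guide against LIN28B, a protein that binds let-7 precursors and keeps these microRNAs from maturing. The medium was RPMI plus 10% serum, puromycin at 1 ug/mL was used to select transduced cells in both groups, and each group had 3 libraries. The labels do not say whether the knockout is a pool or a clone, nor whether libraries came from separate cultures, so the variation behind each p-value is that among libraries and could be purely technical.

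The proteasome is the protease that degrades ubiquitin-tagged proteins. Its barrel, the 20S core, stacks rings of alpha subunits, which form the gate, around rings of beta subunits, of which PSMB5, PSMB6 and PSMB7 cut peptide bonds. The 19S particle caps the barrel, binds ubiquitin, removes it and unfolds the substrate with a ring of ATPases. In immune cells and under interferon, PSMB8, PSMB9 and PSMB10 replace the constitutive catalytic subunits, and the particle is then called the immunoproteasome. Plasma cells and myeloma cells secrete large amounts of immunoglobulin, and proteasome inhibitors that bind PSMB5 are standard myeloma drugs.

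LIN28B itself stood at 23.3, 24.3 and 25.5 FPKM (the deposited unit, in which fragments are scaled to transcript length and to library size) in the control libraries and at 8.41, 8.17 and 5.84 in the LIN28B KO libraries. Depth, estimated from the deposited error bounds as if they held counting error alone, was equivalent to 8353323, 6299758 and 7064237 fragments in control libraries 1 to 3. In LIN28B KO libraries 1 to 3 it was 5587615, 4800148 and 4900845. By this estimate every LIN28B KO library was shallower than every control library, and the part of depth in the results was not tested. LIN28B KO library 3 was unlike the remaining 5: 30.4% of olfactory receptor genes, which this cell type does not use, were above 0 there against 10.2% to 14.5% elsewhere, and the nuclear RNA MALAT1 was at 892 FPKM against 259 to 331. NEAT1, another nuclear RNA, read 310 to 323 FPKM in control. It was higher in LIN28B KO library 1 (459 FPKM) and library 2 (452) and at 311 in library 3, and its part in the results was not tested. Abundant mRNAs were lower in this library, and proteasome mRNAs are abundant, so the calls and group medians of the members are given with and without it. All 9 plasma cell markers found were at 10 FPKM or more in every library. T and NK cell markers summed to 1.39 to 1.64 FPKM in control and 1.99 to 2.97 in LIN28B KO libraries with CD3D and NKG7 at 0. Myeloid markers summed to 0.458 to 1.39 and 0.774 to 1.76 with FCGR3A at 0. Epithelial and stromal markers, in which KRT8 was the only one of 6 at 10 FPKM or more throughout, summed to 123 to 134 and 86.3 to 106. The part of these markers in the results was not tested.

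Proteasome genes share promoter elements, and the sequences below are shown because mRNAs of the factors known to bind such elements are described further on. Of the 49 genes, 43 had at least 1 promoter in the RefSeq table (GRCh38.p14, 250 bases before to 50 after each gene's start), 52 promoters in all. The antioxidant response element searched, TGAC and GCA with any 3 bases between them on either strand, is the type of site bound by NFE2L1, the factor known to drive proteasome genes when the proteasome is inhibited. It was present in 9 of the 52 member promoters (17.3%) and in 3.18% of all 35116 promoters in the table. Each sequence reads along the gene's own strand, and the capitals mark the match, which is the reverse complement of the motif where it begins with TGC.
PSMA4 (chr15:78540650-78540679, plus strand): gtgggcacgaTGACTCTGCAccgcctcctc
PSMB3 (chr17:38752627-38752656, plus strand): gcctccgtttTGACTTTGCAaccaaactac
PSMB9 (chr6:32854033-32854062, plus strand): agggcggggcTGCCTCGTCActtgtctcgg
PSMC5 (chr17:63827653-63827682, plus strand): cgaccggatcTGCTGTGTCAgcgccgccct
PSMD1 (chr2:231056896-231056916, plus strand): aggaggcgacTGACTGAGCAg
PSMD3 (chr17:39980829-39980856, plus strand): ggtttgcagcTGCTCCGTCAtcgtgcgg
PSMD9 (chr12:121888630-121888659, plus strand): acgctactccTGCCGGGTCAccacaggcgc
PSMD12 (chr17:67366723-67366752, minus strand): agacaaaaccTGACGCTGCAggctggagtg
PSME4 (chr2:53971009-53971038, minus strand): gcccggcggcTGCAGCGTCAccagcagagc

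These 9 genes span both rings, the ATPases, the non-ATPase subunits, a base chaperone and an activator. Their matches began 35 to 165 bases before the start, apart from PSMD1 and PSMD3, in which they began 39 and 32 bases after it.

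The interferon-stimulated response element searched, TTTC repeated with any 2 bases between on either strand, was present in 7 of the 52 member promoters (13.5%) and in 3.57% of all promoters. PSMA4, PSMB4 and PSMG4 held it beside 4 genes that interferon is known to induce. The sequences of those 4, immunoproteasome subunits PSMB8 and PSMB10 and activator subunits PSME1 and PSME2, follow, with the match in capitals.
PSMB8 (chr6:32844032-32844061, minus strand): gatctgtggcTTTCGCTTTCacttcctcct
PSMB10 (chr16:67936852-67936881, minus strand): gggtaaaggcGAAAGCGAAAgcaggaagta
PSME1 (chr14:24136189-24136218, plus strand): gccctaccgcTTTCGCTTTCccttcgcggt
PSME2 (chr14:24146619-24146648, minus strand): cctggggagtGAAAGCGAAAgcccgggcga

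In these 4 the match began within 28 bases of the start on either side. CCAAT, the box bound by NF-Y, was in 20 of 52 member promoters (38.5%) against 34.6% of all promoters. The ETS-type site CCGGAAGT was in 11 (21.2%) against 4.14%, and the E-box CACGTG, bound by MYC, in 3 (5.77%) against 7.26%; each was searched on both strands, and the motifs may overlap. These matches are descriptions of letters and not of occupied sites.

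All subunits of the constitutive proteasome were expressed. Of the 49 genes, 47 had control means between 25.3 FPKM (PSMG4, an assembly chaperone) and 331 FPKM (PSMB4, a structural beta subunit). The tissue-restricted pair lay far below: the testis alpha subunit PSMA8 read 1.43, 1.61 and 1.08 FPKM in control and 1.35, 0.869 and 1.23 in LIN28B KO libraries, and the thymus beta subunit PSMB11 was at 0 or near 0 in every library and was not tested. The 48 tested members were therefore all but 1 of the list, and 15803 genes were tested in all. Median control levels were 145 FPKM for the 14 constitutive 20S ring genes, 80.2 for the 17 subunits of the 19S particle, 42.9 for the 3 immunoproteasome genes, 46.3 for the 5 assembly genes and 35.8 for the 3 base chaperones. Control libraries differed little: the median coefficient of variation over the 47 expressed members was 3.84% and the highest 12.8%.

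**Figure D1:**
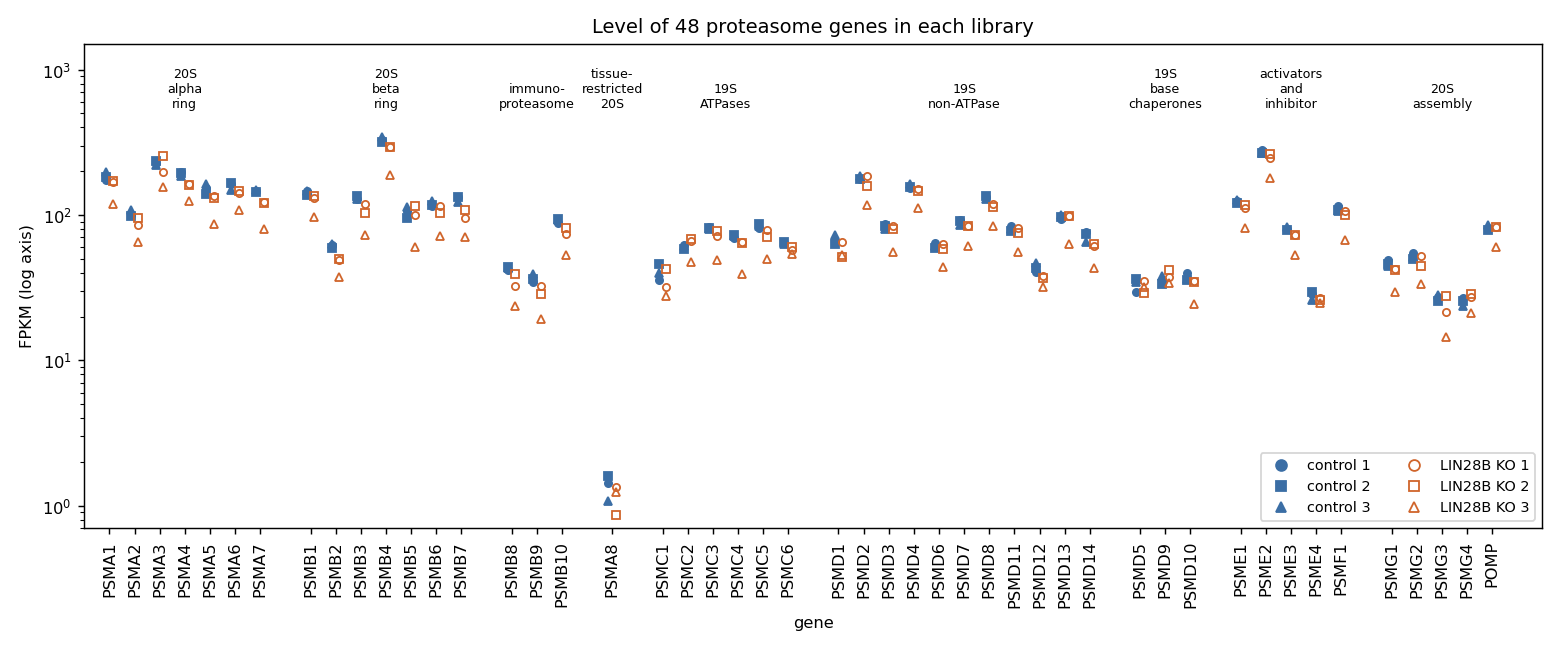
FPKM (log axis) of the 48 tested proteasome genes in each library, ordered by role; filled blue symbols are control and open orange symbols LIN28B KO libraries. Most genes sit between 25.3 and 331 FPKM, and the open triangles of LIN28B KO library 3 are the lowest symbol for most genes.

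No proteasome gene passed the adjusted threshold of 0.05 with all 6 libraries. These are bulk values, in which fewer cells with a transcript and less of it per cell cannot be told apart. The limma fit on log2(FPKM + 0.5), adjusted over all genes by the Benjamini-Hochberg method, called 0 of 48 members lower against 0.0316% of all genes tested, and 0 higher against 0.0633%. The smallest adjusted p was 0.310, for PSMB2. At an unadjusted p under 0.05 there were 5 members (PSMA4, PSMA7, PSMB2, PSMB7 and PSMB9), 10.4% of the list against 13.7% of all genes and 15.1% of genes in the members' range of levels. With cyclic loess scaling, which removes level-dependent shifts between libraries, limma again called 0 members (background 0.342% lower and 0.361% higher), and 10 (20.8%) had an unadjusted p under 0.05, against 18.1% of all genes and 24.5% of genes in that range.

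Without LIN28B KO library 3, fitted over 11414 protein-coding genes, 2 members passed: PSMA7 and PSMB2, both lower, which is 4.17% of 48 members. The background was 2.99% of all genes in that fit and 4.98% of the 3997 genes whose control mean lay in the members' range, so the members' share is near both. No member was higher, against 1.07% of all genes. At an unadjusted p under 0.05 the count was 15 of 48 (31.2%), against 22.8% of all genes and 29.3% of genes in the members' range. This share too is near that of genes in that range. The 15 were 4 of 7 alpha ring, 4 of 7 beta ring, 3 of 3 immunoproteasome, 1 of 6 ATPase, 2 of 11 non-ATPase and 1 of 5 activator or inhibitor genes, and none of the base chaperones or assembly genes. With cyclic loess scaling 0 members passed in this fit (background 1.02% lower and 0.999% higher), and 5 members (10.4%) had an unadjusted p under 0.05, against 20.9% of all genes and 25.5% of genes in the members' range. Both calls were also lost when all genes instead of protein-coding ones were tested (limma adjusted p = 0.0736 and 0.0747) and when any further library was left out.

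The direction of the values was shared more widely than the calls. With 6 libraries 46 of 48 members had a log2 fold change below 0, against 66.5% of all genes tested and 87.6% of genes in the members' range. Without LIN28B KO library 3 it was 42 of 48 (87.5%), against 57.2% and 67.3%. After cyclic loess scaling the counts were 34 (70.8%) with 6 libraries, against 49.2% and 52.8%, and 35 (72.9%) without LIN28B KO library 3, against 49.8% and 51.9%. In the deposited values every LIN28B KO library lay below every control library for 28 of 48 members (58.3%), against 20.1% of all genes and 34.5% of genes in the members' range of levels. After cyclic loess scaling this held for 12 members (25%), against 13.3% of all genes and 18% of genes in that range. Those 12 were PSMA7, PSMB2, PSMB3, PSMB4, PSMB7, PSMB8, PSMB9, PSMB10, PSMC4, PSMD8, PSME3 and PSMG1, of which 8 are 20S subunits and 2 are 19S subunits. LIN28B KO library 3 on its own, after scaling, was below all controls for 25 members (52.1%) against 36.5% of all genes and 40.6% of genes in the members' range. It was above all controls for 10 of 48 members, against 38% of all genes and 1532 of the 4345 genes in the members' range.

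No member had all LIN28B KO libraries above all controls in the deposited values, against 7.61% of all genes but only 1.43% of genes in the members' range. After cyclic loess scaling 3 did (6.25%), against 13.7% of all genes and 14.1% of genes in that range: the ATPase PSMC2, the base chaperone PSMD9 and the assembly chaperone PSMG4.

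By library, the median log2 ratio of the members to their control mean was -0.13, -0.12 and -0.61 in LIN28B KO libraries 1 to 3, while genes in the same range of levels stood at -0.07, -0.07 and -0.52. After cyclic loess scaling the members' medians were -0.05, -0.05 and -0.07 and those of genes in the same range -0.01, -0.01 and -0.02. The members' median was thus below that of genes in the same range in all 3 LIN28B KO libraries under both scalings. The gap was less than 0.1 on the log2 scale in each. Members sat higher within that range, with a median control mean of 82.0 FPKM against 49.8. The part of level in this gap was not tested. Averaged over libraries, the members' median fitted log2 fold change was -0.28 with 6 libraries and -0.13 without LIN28B KO library 3. For all genes tested it was -0.13 and -0.04, and for genes in the members' range -0.22 and -0.08. After cyclic loess scaling the members' median was -0.07 and -0.06, against 0.0046 and 0.0010 for all genes tested.

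**Figure D2:**
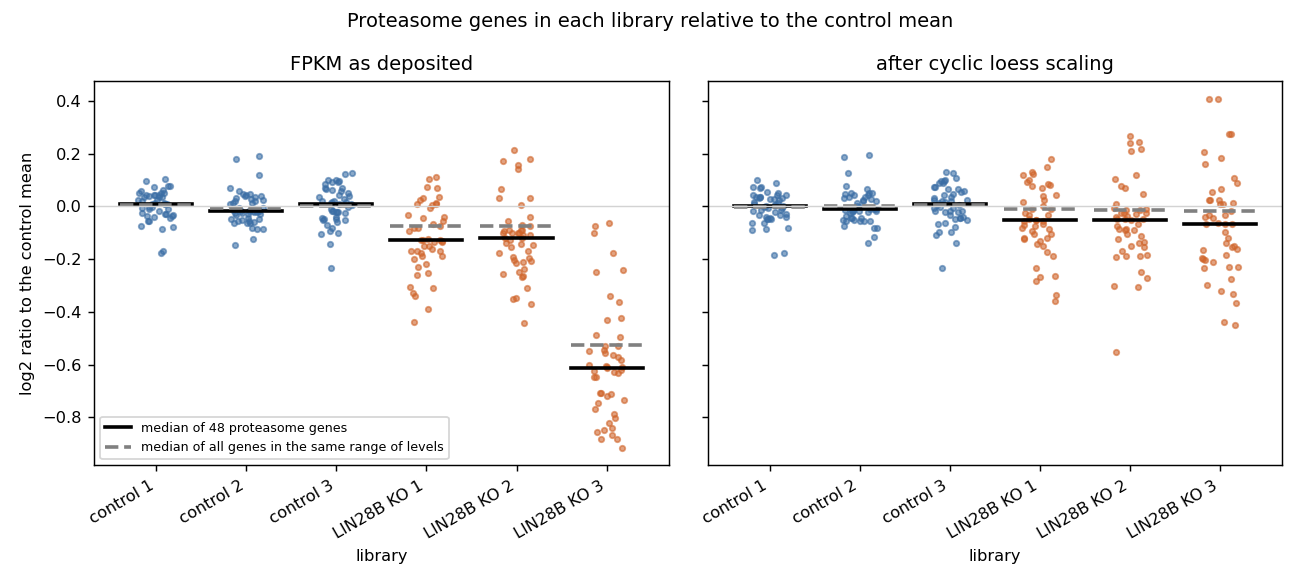
Log2 ratio of each of the 48 tested proteasome genes (points) to its mean over the control libraries, by library, for FPKM as deposited (left) and after cyclic loess scaling (right); solid lines are medians of the members and dashed lines medians of all genes in the same range of levels. The members' medians in the deposited values are -0.13, -0.12 and -0.61 in LIN28B KO libraries 1 to 3, and -0.05, -0.05 and -0.07 after scaling.

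Alpha ring genes PSMA1 to PSMA7 had control means of 103 to 227 FPKM. All 7 had a log2 fold change below 0, with a median of -0.34 with 6 libraries and -0.19 without LIN28B KO library 3, and 1 of 7 passed the test in the latter fit. That gene was PSMA7 (chr20:60711791-60718496, GRCh37). Its level was 147, 143 and 148 FPKM in control libraries 1 to 3 and 122, 121 and 79.8 in LIN28B KO libraries 1 to 3. Every LIN28B KO library lay below every control, with LIN28B KO libraries 1 and 2 close to each other and library 3 lower. The log2 fold change was -0.26 ± 0.05 (SE, limma, adjusted p = 0.0432) without LIN28B KO library 3 and -0.46 ± 0.19 (adjusted p = 0.359) with it. With cyclic loess scaling the adjusted p was 0.116.

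PSMA4, which forms part of the same ring, read 197, 194 and 185 FPKM in control and 163, 161 and 124 in LIN28B KO libraries. The groups did not overlap as deposited but did after cyclic loess scaling. The log2 fold change without LIN28B KO library 3 was -0.24 (limma adjusted p = 0.0543), just outside the threshold. The highest alpha gene, PSMA3, read 229, 234 and 220 FPKM in control and 198, 254 and 156 in LIN28B KO libraries. Its groups overlapped because LIN28B KO library 2 was the highest of all 6. The lowest, PSMA2, read 100, 99.1 and 109 against 85.5, 95.1 and 65.3, without overlap (limma adjusted p = 0.395 with 6 libraries). Its groups overlapped after cyclic loess scaling.
The files list second gene models under the names PSMA1 and PSMA2 that overlap the main ones. The second PSMA2 model was at 7.73 to 9.07 FPKM in control and 4.74 to 10.3 in LIN28B KO libraries, and the second PSMA1 model stayed near 0 except in LIN28B KO libraries 2 and 3, at 0.913 and 2.54. Levels of PSMA1 and PSMA2 are uncertain to that extent.

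Beta ring genes PSMB1 to PSMB7 had control means of 61.5 to 331 FPKM. All 7 were below 0 in log2 fold change with 6 libraries (median -0.39) and 6 of 7 without LIN28B KO library 3 (median -0.17), where 1 passed. PSMB2 (chr1:36067185-36107445, GRCh37), a structural beta subunit and the lowest of the ring, read 61.9, 59.7 and 63.0 FPKM in control and 48.8, 49.6 and 37.5 in LIN28B KO libraries. Its groups did not overlap, and the SD was 1.70 FPKM in control and 6.77 in LIN28B KO libraries. Its log2 fold change was -0.32 ± 0.06 (SE, limma, adjusted p = 0.0436) without LIN28B KO library 3 and -0.45 ± 0.15 (adjusted p = 0.310) with it. With cyclic loess scaling it was -0.25 (adjusted p = 0.0858).

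The structural subunit PSMB4, the most abundant member, read 330, 317 and 346 FPKM in control and 296, 292 and 187 in LIN28B KO libraries. The groups were apart, and limma's adjusted p without LIN28B KO library 3 was 0.120. PSMB3, also structural, read 128, 135 and 128 against 119, 102 and 72.6, also apart (adjusted p = 0.133).

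The catalytic subunits were the next to be read. PSMB7 (chr9:127115745-127177723, GRCh37), which carries the trypsin-like site, had the most negative fold change of all members: it read 134, 133 and 122 FPKM in control and 95.5, 108 and 70.1 in LIN28B KO libraries. All LIN28B KO libraries lay below all controls, and the log2 fold change was -0.53 with 6 libraries (limma adjusted p = 0.316) and -0.35 ± 0.07 without LIN28B KO library 3 (adjusted p = 0.0543). PSMB5, the chymotrypsin-like subunit and main target of proteasome inhibitors in myeloma, read 107, 94.8 and 114 FPKM against 99.5, 116 and 60.6. Its groups overlapped, with LIN28B KO library 2 above every control and LIN28B KO library 3 below. The log2 fold change was -0.24 with 6 libraries and 0.03 without LIN28B KO library 3 (limma adjusted p = 0.628 and 0.878). PSMB6, the caspase-like subunit, read 116, 117 and 124 against 116, 104 and 72.1, and LIN28B KO library 1 was level with control library 1 (limma adjusted p = 0.453 with 6 libraries). Whether the change of PSMB7 differed from that of PSMB5 or PSMB6 was not tested.

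All 3 immunoproteasome genes had non-overlapping groups, in the deposited values and after cyclic loess scaling, yet none passed the adjusted threshold in any of the 4 fits. The same separation was seen for 20.1% of all genes and 34.5% of genes in the members' range in the deposited values, and for 13.3% and 18% after scaling. PSMB8, the counterpart of PSMB5, read 42.0, 43.5 and 43.1 FPKM in control and 32.6, 39.4 and 23.6 in LIN28B KO libraries. PSMB9, the counterpart of PSMB6, read 34.7, 36.3 and 39.1 against 32.5, 28.6 and 19.2. PSMB10, the counterpart of PSMB7, read 87.4, 93.4 and 91.7 against 73.4, 81.5 and 53.1. Every value in the LIN28B KO libraries was below the lowest control value of its gene. Their log2 fold changes without LIN28B KO library 3 were -0.26, -0.26 and -0.23, with limma adjusted p of 0.167, 0.153 and 0.116. Loci of PSMB8 and PSMB9 overlap on chromosome 6 and strand use is not given in the sources used here, so reads of these 2 genes cannot be told apart where they overlap.

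Ratios of each immunoproteasome gene to the constitutive gene it replaces are independent of any factor common to a library. The PSMB8 to PSMB5 ratio was 0.394, 0.459 and 0.378 in control and 0.327, 0.341 and 0.389 in LIN28B KO libraries. These overlapped, and the log2 difference was -0.22 (exact two-sided permutation p = 0.2), or -0.13 without control library 2. The PSMB9 to PSMB6 ratio was 0.300, 0.310 and 0.315 against 0.281, 0.275 and 0.266. It was lower in all 3 LIN28B KO libraries, by 0.17 on the log2 scale. The PSMB10 to PSMB7 ratio went the other way, at 0.654, 0.703 and 0.749 against 0.769, 0.757 and 0.758, a log2 difference of 0.12 without overlap, which was 0.069 without control library 1. For the latter pair of ratios the exact two-sided permutation p was 0.1 each, the smallest that 3 libraries against 3 allow, and 0.15 after adjustment over the 3 ratios. The 3 immunoproteasome genes together made up 32.5% ± 0.947 (SD, n = 3) of the FPKM of the 6 genes in control and 31.4% ± 0.638 (SD, n = 3) in LIN28B KO libraries, a difference close to the spread within the groups.

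**Figure D3:**
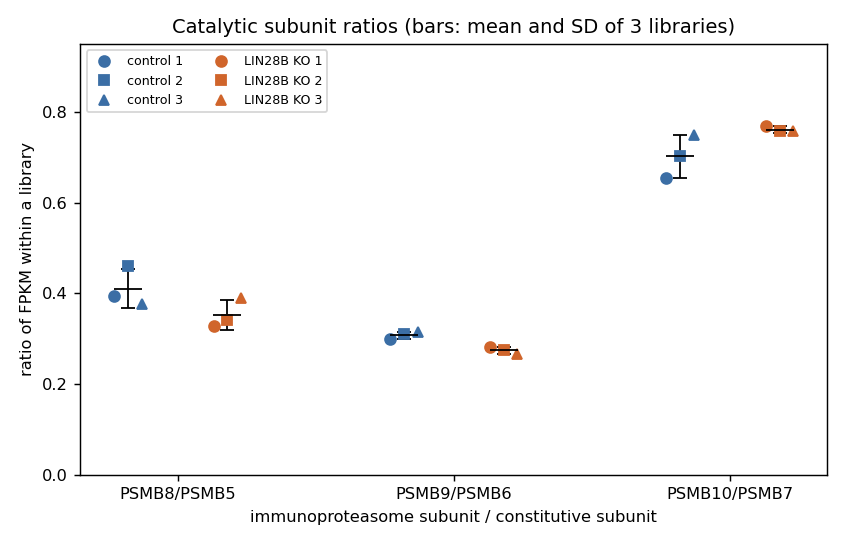
Ratio of the FPKM of each immunoproteasome subunit to that of the constitutive subunit it replaces, within each library; bars are the mean and SD of 3 libraries. PSMB9/PSMB6 lies between 0.266 and 0.281 in LIN28B KO and between 0.300 and 0.315 in control libraries, and PSMB8/PSMB5 overlaps between the groups.

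The 19S ATPases PSMC1 to PSMC6, which unfold substrates and open the gate, had control means of 40.7 to 84.0 FPKM. No ATPase passed the test, and 4 of 6 (66.7%) had non-overlapping groups with LIN28B KO lower, against 20.1% of all genes and 34.5% of genes in the members' range, and 1 of 6 (16.7%) after cyclic loess scaling, against 13.3% and 18%. The median log2 fold change was -0.30 with 6 libraries, -0.14 without LIN28B KO library 3 and -0.09 with 6 libraries after cyclic loess scaling. PSMC5, the highest, read 80.8, 86.7 and 84.6 FPKM in control and 78.6, 70.3 and 49.9 in LIN28B KO libraries (limma adjusted p = 0.403). PSMC1, the lowest, read 35.9, 46.3 and 40.0 against 31.9, 42.4 and 27.5, with overlap. PSMC2 had higher values in LIN28B KO libraries 1 and 2, at 65.7 and 68.9 FPKM, than in any control library, at 62.5, 58.2 and 61.6, while LIN28B KO library 3 was below them at 47.1. Without that library its log2 fold change was 0.15 (limma adjusted p = 0.239). It is described here because it was 1 of the 3 members above all controls after scaling, a choice made after its values were seen.

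Among the 11 non-ATPase subunits of the 19S particle none passed, and 5 of 11 (45.5%) had non-overlapping groups with LIN28B KO lower, against 20.1% of all genes and 34.5% of genes in the members' range. Their median log2 fold change of -0.23 with 6 libraries and -0.085 without LIN28B KO library 3 became -0.0023 with 6 libraries after cyclic loess scaling. PSMD4, a ubiquitin receptor, read 154, 155 and 163 FPKM in control and 150, 147 and 112 in LIN28B KO libraries. The groups did not overlap, though the first 2 LIN28B KO libraries were only just below the controls, and the log2 fold change went from -0.22 to 0.03 after cyclic loess scaling (limma adjusted p = 0.497 and 0.810). PSMD14, the deubiquitinase that removes ubiquitin from substrates, read 76.4, 73.7 and 64.7 against 61.3, 63.4 and 43.5. It too was below every control in every LIN28B KO library (limma adjusted p = 0.393 with 6 libraries and 0.233 without LIN28B KO library 3). The groups of PSMD14 overlapped after cyclic loess scaling. PSMD8, a lid subunit, read 132, 134 and 128 against 120, 113 and 84.6, and its groups were apart before and after scaling (adjusted p = 0.133 without LIN28B KO library 3). PSMD2, the scaffold subunit and the highest of the group, read 178, 177 and 185 FPKM against 184, 157 and 118, with overlap. PSMD12, the lowest, read 40.8, 42.9 and 46.5 against 38.0, 36.6 and 32.2, without overlap (limma adjusted p = 0.375 with 6 libraries). Its groups overlapped after cyclic loess scaling.

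The 20S and 19S genes were also set against each other within each library. The median log2 level of the 14 ring genes exceeded that of the 17 particle genes by 0.86, 0.84 and 0.88 in control and by 0.83, 0.84 and 0.66 in LIN28B KO libraries 1 to 3. The groups overlapped, and the difference of -0.08 had an exact two-sided permutation p of 0.2. It was -0.025 without LIN28B KO library 3. This measure was added after the values had been seen. Between-group medians of the fold change were -0.35 for the rings and -0.25 for the particle with 6 libraries, and -0.11 and -0.0075 after cyclic loess scaling. Without LIN28B KO library 3 they were closer, at -0.18 and -0.13, and at -0.089 and -0.057 after scaling.

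**Figure D4:**
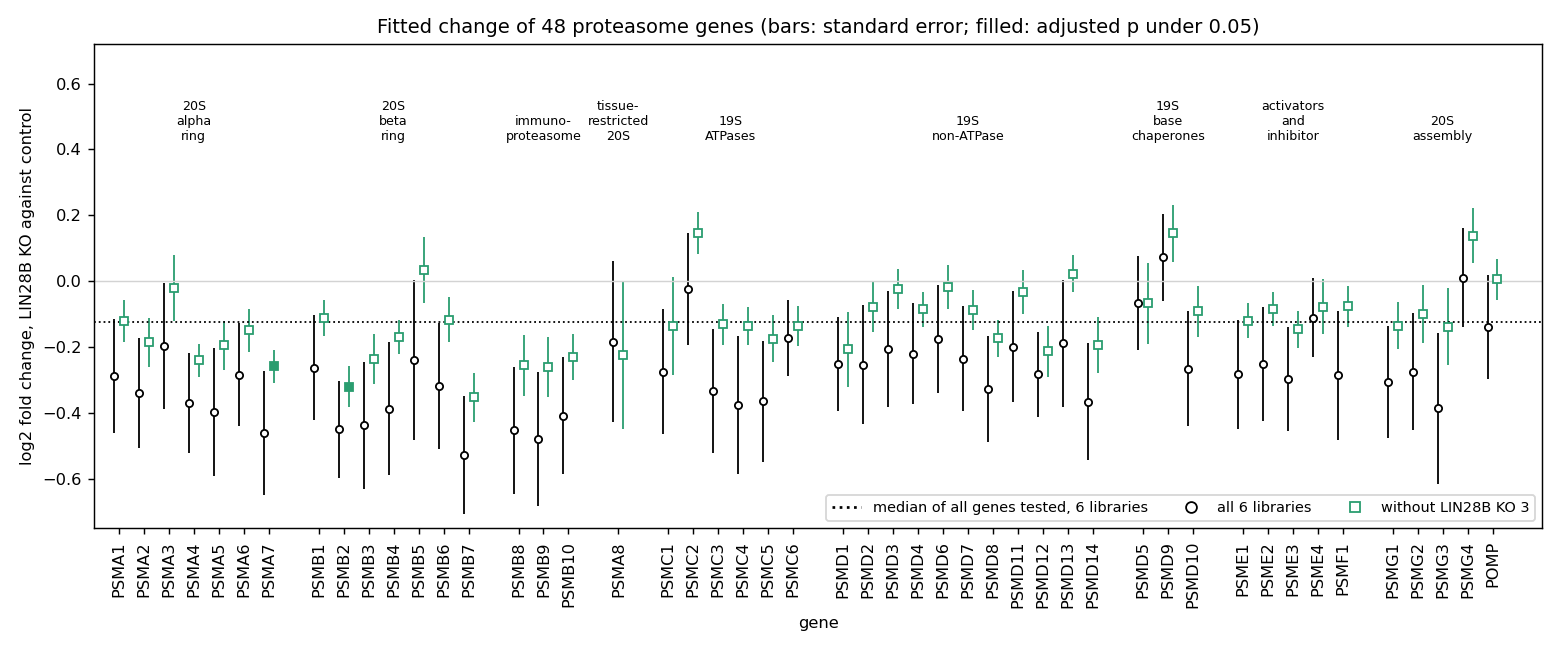
Log2 fold change of the 48 tested proteasome genes, LIN28B KO against control, with bars for the standard error, in the fit of 6 libraries (circles) and without LIN28B KO library 3 (squares); filled symbols have an adjusted p under 0.05, and the dotted line is the median of all genes tested with 6 libraries. PSMA7 (-0.26) and PSMB2 (-0.32) without LIN28B KO library 3 are the only filled symbols.

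Base chaperones PSMD5, PSMD9 and PSMD10, which help the ATPase ring form, had control means of 33.5 to 37.4 FPKM, and none passed. PSMD5 read 29.4, 36.3 and 34.7 FPKM in control and 35.0, 28.9 and 31.9 in LIN28B KO libraries, with full overlap. The half-width of its deposited bounds, taken as 2 SD, reached 24.6% of the level. An antisense gene, PSMD5-AS1, also lies over PSMD5, so the level of PSMD5 is uncertain. PSMD10 read 40.2, 35.8 and 36.2 against 35.2, 34.8 and 24.2, with LIN28B KO below control throughout and a limma adjusted p of 0.476 with 6 libraries. Its groups overlapped after cyclic loess scaling. PSMD9 was at 35.5, 33.7 and 38.3 against 37.7, 41.6 and 34.0, and its log2 fold change was above 0 in all 4 fits, from 0.07 to 0.27, without passing in any.

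The activators open the core without ubiquitin. PSME1 and PSME2 form the interferon-induced 11S ring, PSME3 the nuclear 11S ring and PSME4 the large PA200 activator. No activator passed. PSME2, the second most abundant member, read 278, 265 and 267 FPKM in control and 247, 262 and 180 in LIN28B KO libraries. PSME1 read 125, 122 and 126 against 112, 117 and 81.3, and PSME3 read 79.9, 79.3 and 82.1 against 72.4, 72.9 and 52.9. In these 3 of 5 genes (60%) every LIN28B KO library lay below every control (background 20.1%, and 34.5% in the members' range), and only PSME3 kept that separation after cyclic loess scaling (limma adjusted p = 0.415 with 6 libraries and 0.183 without LIN28B KO library 3). PSME4, the lowest, read 28.6, 29.3 and 26.0 against 26.9, 26.0 and 24.6, with overlap. PSMF1, the inhibitor PI31, read 114, 108 and 106 against 107, 101 and 66.9, also with overlap (limma adjusted p = 0.488).

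Assembly genes PSMG1 to PSMG4 encode the chaperones that build the alpha ring, and POMP the maturation factor that joins the core's 2 parts. None of the 5 passed. POMP was the highest, at 81.5, 78.5 and 86.0 FPKM in control and 82.3, 82.2 and 60.7 in LIN28B KO libraries. LIN28B KO libraries 1 and 2 lay inside the control range, and the log2 fold change was -0.14 with 6 libraries and 0.01 without LIN28B KO library 3 (limma adjusted p = 0.666 and 0.968). PSMG4, the lowest, read 26.7, 25.5 and 23.7 against 27.2, 28.5 and 21.3, with a log2 fold change of 0.01 with 6 libraries (adjusted p = 0.978). Of the 5 assembly genes only PSMG1 (20%) had non-overlapping groups in the deposited values, with LIN28B KO lower. The background was 20.1% of all genes and 34.5% of genes in the members' range.

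The share of the transcriptome held by the complex was computed as a percent of summed FPKM. Over all genes this sum includes D86994.1, the gene model with the highest value in any library. It was listed at 128186 FPKM in control library 1 and near 0 in control library 2 and LIN28B KO library 2, so the sum shifts with it. Over all genes the shares of 20S, 19S and all members gave exact permutation p of 0.3, 0.5 and 0.4 (0.5 each after adjustment over the 3 shares). Over protein-coding genes, an alternative added after the values were seen, the 14 ring genes held 0.380%, 0.379% and 0.389% in control and 0.353%, 0.365% and 0.340% in LIN28B KO libraries. The 17 particle genes held 0.254%, 0.258% and 0.258% against 0.257%, 0.248% and 0.252%, with overlap. The rings' share was lower in each LIN28B KO library, with an exact two-sided permutation p of 0.1 and 0.15 after adjustment over 3 shares. All members together held 0.832%, 0.831% and 0.843% against 0.802%, 0.807% and 0.783% (exact p = 0.1, adjusted 0.15).

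Genes that work with the proteasome were read in the same fits. With 6 libraries none of the genes on these lists passed. Among 18 proteasome-associated genes, PAAF1, an ATPase assembly factor, was above all controls in LIN28B KO libraries 1 and 2, at 32.4 and 27.3 FPKM against 22.0, 21.6 and 19.5 in control, and was at 16.6 in LIN28B KO library 3 (limma adjusted p = 0.0551 without that library). UCHL5, a deubiquitinase of the 19S particle, read 101, 102 and 99.3 against 91.9, 76.0 and 72.3 (adjusted p = 0.133), and the ubiquitin receptor ADRM1 had a log2 fold change of -0.08 (adjusted p = 0.504) in the same fit. Among 6 ubiquitin and ubiquitin-activating genes 0 passed in that fit.

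Of 13 genes for the transcription factors of proteasome genes, their processing and their known targets, 12 were tested. Without LIN28B KO library 3, 1 was called higher and 0 lower, against 1.07% and 2.99% of all genes in that fit. HMOX1, the stress-induced heme oxygenase, read 5.49, 6.10 and 6.26 FPKM in control and 8.92, 10.3 and 7.33 in LIN28B KO libraries. All LIN28B KO libraries were above all controls, which held for 7.61% of all genes tested in the deposited values. The log2 fold change was 0.65 ± 0.12 (SE, limma, adjusted p = 0.0395) without LIN28B KO library 3, with an adjusted p of 0.0493 after cyclic loess scaling and 0.299 with 6 libraries. NQO1 and TXNRD1, further antioxidant response genes, had log2 fold changes of 0.26 and 0.23 without LIN28B KO library 3 (adjusted p = 0.103 and 0.147). NFE2L1 read 79.3, 70.4 and 67.5 FPKM in control and 78.6, 73.5 and 62.9 in LIN28B KO libraries, with overlap and a log2 fold change of 0.07 (limma adjusted p = 0.655 without LIN28B KO library 3). The 9 proteasome genes whose promoters hold the NFE2L1-type element had a median log2 fold change of -0.28 with 6 libraries and -0.21 without LIN28B KO library 3. The 33 tested members with a promoter in the RefSeq table but no match had -0.27 and -0.12. Whether these differ was not tested.

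Of 11 interferon and class I loading genes, 5 of which are also proteasome members, 0 passed. The peptide transporter genes differed in sign: TAP2 read 60.3, 61.1 and 68.5 FPKM in control and 49.6, 53.7 and 40.1 in LIN28B KO libraries, and TAP1, which shares a promoter region with PSMB9, read 27.1, 26.3 and 25.8 against 30.7, 30.8 and 21.1. Neither passed (limma adjusted p = 0.101 and 0.137 without LIN28B KO library 3). The interferon-driven factor IRF1 had a log2 fold change of -0.04 in the same fit (adjusted p = 0.904).

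Other large complexes give a scale for the size of these values. Without LIN28B KO library 3, the median log2 fold change was -0.16 for 8 chaperonin genes, -0.0084 for 9 COP9 signalosome genes and -0.13 for 13 genes of the translation initiation factor eIF3, beside -0.13 for the proteasome members. With 6 libraries these medians were -0.33, -0.21 and -0.25, beside -0.28. Median control means of the 3 complexes were 214, 44.3 and 169 FPKM. The test called 1 chaperonin gene (CCT7, log2 fold change -0.46, limma adjusted p = 0.0312), 0 COP9 genes and 1 eIF3 gene (EIF3K, -0.29, adjusted p = 0.0334), all lower. The background was 2.99% of all genes and 4.98% of genes in the members' range. Both calls were lost with cyclic loess scaling (adjusted p = 0.0544 and 0.0820). At an unadjusted p under 0.05 there were 5 of 8 chaperonin, 0 of 9 COP9 and 7 of 13 eIF3 genes, and 5 of 18 proteasome-associated, 2 of 6 ubiquitin, 3 of 12 transcription and 5 of 11 interferon genes. Those 5 interferon genes include the members PSMB8, PSMB9 and PSMB10. The background was 22.8% of all genes and 29.3% of genes in the members' range. Whether any of these complexes differed from the proteasome was not tested.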

How the data were processed

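The submitters' processing notes name cutadapt, HTSeq, TopHat2 and GRCh37, without versions or roles. The deposited tables hold FPKM per gene with error bounds, per the file headers; strand, poly(A) selection and the tool that wrote them remain unstated in these sources. Rows of the 108 genes listed more than once were summed, and 25 genes with a failed estimate were left out. FPKM, not read numbers, were deposited, so log2(FPKM + 0.5) of genes at 1 FPKM or more in at least 3 libraries was fitted in limma 3.58.1 under R 4.3.3, two-sided and with the variance trended on level, with Benjamini-Hochberg adjustment over all genes at 0.05. A second fit left out LIN28B KO library 3 and kept protein-coding genes of GENCODE 29, matched by identifier, or by symbol for 106 genes. This scale holds for every fold change and understates those of low genes. Ratios and shares had exact permutation tests.

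Members named with all values by rule were the catalytic genes, PSMD4, PSMD14, PSME1 to PSME4, PSMF1 and POMP, the 8 smallest p of each fit and the extremes of each group, and up to 3 genes of each other list. PSMC2 and PSMD9 fell outside this rule and were added with their values seen. The member rule reads symbols only, but it, the member groups and the lists were set with earlier results of these data known. The half-width of the deposited bounds was 3.14% to 24.6% of the level for the 47 expressed members. It is given within each library, and what it covers besides counting is not stated. The scripts were tested on simulated data. Loci are GRCh37 as deposited; promoters are RefSeq's, GRCh38.p14. Some genes that this rule picks are not reported here.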

Additional observations from a re-analysis of the deposited data

How the results depend on the processing

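With 6 libraries, no setting tried called a member, and the median log2 fold change of the members was -0.070 with cyclic loess, -0.12 with quantile and -0.21 with median scaling, against -0.28; leaving out 1 library gave -0.37 to -0.13, the latter without LIN28B KO library 3. Without LIN28B KO library 3 the median was -0.060, -0.067 and -0.10 under the same scalings, against -0.13. There the count of 2 members lower became 0 with cyclic loess, quantile or median scaling, without the filter, with the replicate block, without the variance trend or with all genes tested, 0 to 0 on leaving out any further library, and 4 at FPKM of at least 5, where PSMA4 (adjusted p = 0.0458) and PSMB7 (adjusted p = 0.0440) joined PSMA7 and PSMB2. Other pseudocounts, and the highest row in place of the sum for repeated genes, kept the count at 2. The cause was not tested. Replicate numbers were not taken to pair the libraries in the main fits. Correlations of same-numbered deviations were -0.0213, 0.0437 and -0.0327, which do not settle whether same-numbered libraries share a batch. The replicate block called 0 members with 6 libraries too. The log2 difference of the PSMB9 to PSMB6 ratio was -0.21 with cyclic loess against -0.17. With 6 libraries the sign of 12 members, at -0.25 to -0.024, turned under cyclic loess, to 0.0125 to 0.19. PSMC2, PSMC6, PSMD3, PSMD6, PSMD11 and PSMD13 were 6 of these, and the others were PSMA3 0.064, PSMD4 0.028, PSMD5 0.13, PSME2 0.0125, PSME4 0.072 and POMP 0.086. Quantile scaling gave PSMD5 0.079, PSME4 0.028 and POMP 0.030, and median scaling gave PSMD5 0.0078. Leaving out 1 library gave 0.069 to 0.17 for the log2 PSMB10 to PSMB7 ratio, -0.29 to -0.13 for PSMB8 to PSMB5 and -0.12 to -0.025 for the 20S to 19S level, and ranges of -0.43 to 0.033 for PSMB5, -0.15 to 0.0038 for PSMD5, -0.069 to 0.14 for PSMG4 and -0.21 to 0.0055 for POMP. The level of PSMA8 is uncertain, as the half-width of its deposited bounds reached 58.8% of it.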
